A study of Danio rerio with 60 samples.

Results

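Opsins are the light-sensing proteins of photoreceptor cells, and the opsin a photoreceptor makes sets the wavelengths it responds to. Zebrafish have cones of ultraviolet, blue, green and red type, and their green and red cone opsins come as rows of duplicated genes. These genes are switched on at different ages and in different parts of the retina in zebrafish. The cone opsin genes were taken as all genes present in both deposited tables whose symbol begins with opn1 in any case. There were 8 of them among the 26870 genes shared by the tables. Of these 8, 5 passed the level filter for testing in both tables, and opn1mw3, opn1mw4 and opn1lw1 passed in neither.

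The study exposed AB/Tub zebrafish larvae to raloxifene, a selective estrogen receptor modulator, or to resorcinol, a benzenediol and a known inhibitor of thyroid peroxidase. Exposure ran from 72 to 120 hours after fertilization, and each sample was RNA from 20 whole larvae pooled. Resorcinol was given at 0.0405, 0.405, 4.05, 40.5 and 405 µM beside a control with 1% carrier, and raloxifene at 0.00201, 0.0201, 0.201, 2.01 and 20.1 µM beside a control with 0.5% carrier. Each of the 12 groups held 5 samples. The labels leave the carrier unnamed and give its percentage for the controls only. For dosed resorcinol samples the title and the treatment label use the short name of raloxifene, and their group was taken from the description, where resorcinol is named. Nothing in the labels ties replicates to separate spawnings, and a p-value then covers only the variation among pools, which may be technical.

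Values are normalized counts, the deposited read counts divided by 1 factor per library. In units of 1e6 reads, libraries of the raloxifene table held between 7.44 and 10.98, and those of the resorcinol table between 7.78 and 12.1, except replicate 1 at 405 µM with 30.7. Replicate 3 at 40.5 µM resorcinol was the highest of its group for opn1mw2, past the 95% limit of Dixon's test on normalized counts. Replicate 3 at 4.05 µM was the lowest of its group, within that limit. Each of the 2 libraries lay within the range of the other dose. Both were picked out by their opn1mw2 values, so results that rest on them are given with and without them. Leaving them out widens the differences of opn1mw2 and genes like it by that choice, and calls made without them support nothing by themselves. Control replicate 4 of the resorcinol table was the highest control library for every cone opsin gene at a mean count above 100. Whole larvae were used, so fewer photoreceptors of a type and less opsin RNA per photoreceptor cannot be told apart in any result below.

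The green cone opsins of zebrafish are opn1mw1, opn1mw2, opn1mw3 and opn1mw4, which follow each other with 0 genes between them in the RefSeq gene table. In control larvae of the resorcinol table opn1mw1 had a normalized count of 5083 ± 2311 (SD, n = 5) and opn1mw2 of 750 ± 315, while opn1mw3 averaged 2.65 and opn1mw4 0.212. Counts are not divided by transcript length here, so these values order the genes by reads and not by RNA molecules. The raloxifene controls had 4316 ± 951 for opn1mw1 and 625 ± 156 for opn1mw2.

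The clearest change among the cone opsin genes was a fall of opn1mw2 (ENSDARG00000044280) at the 2 highest resorcinol doses. Replicates 1 to 5 of the control had normalized counts of 689, 634, 521, 1303 and 603 for opn1mw2. At 405 µM the values of opn1mw2 were 76.0, 84.9, 63.5, 134.7 and 85.5, with a mean of 88.9 ± 27.1. Every opn1mw2 value at 405 µM lay below the lowest control value, as for 0.158% of all genes tested, and each of the 5 same-numbered pairs was lower. On the log2 scale opn1mw2 fell by 3.03 with a standard error of 0.52, which is 8.15-fold lower (limma, adjusted p = 0.0253; 0.00216 with the replicate number as a block). The call was kept in 3 of 10 limma fits that left out 1 library (adjusted p up to 0.111), and in 5 of 5 fits with the block that left out 1 replicate number. It was the only 1 of the 5 cone opsin genes tested to be called at 405 µM (limma without the block), where 0.0306% of the 19583 genes tested were called. Among all those genes opn1mw2 had the most negative log2 change at this dose.

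At 40.5 µM the normalized counts of opn1mw2 were 34.3, 58.7, 382.6, 87.8 and 53.2 in replicates 1 to 5, with a mean of 123 ± 146. Replicates 1, 2, 4 and 5 were as low as the larvae at 405 µM or lower, while replicate 3 was closer to the controls, though still below all 5 of them, and 0.0664% of all genes had no overlap in this direction. With a standard error of 0.52 on the log2 scale, opn1mw2 was 8.58-fold lower than in controls (limma, adjusted p = 0.0392; 0.00759 with the block). The call was kept in 1 of 10 limma fits that left out 1 library (adjusted p up to 0.292). With the block it was kept in 1 of 5 fits that left out 1 replicate number (adjusted p up to 0.538). Each time this was the fit without replicate 3, which supports nothing by itself because of how that library was picked. The call was not made by edgeR without the block or by limma on these 2 groups alone. With all libraries opn1mw2 was the single gene called of all those tested, 0.00511%, and the 1 called among 5 cone opsin genes. Without replicate 3 at 40.5 and 4.05 µM opn1mw2 fell by 3.65 on the log2 scale, or 12.6-fold, which is given with no test because of how they were picked.

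Larvae at 4.05 µM had opn1mw2 counts of 594, 253, 66.5, 755 and 579. Replicate 3 lay in the range of the 405 µM group, replicate 2 lay between the groups, and the other 3 were in the range of the controls. The mean of 449.5 ± 281 differed from control by a log2 value of -1.07 with a standard error of 0.52, which was not called (limma, adjusted p = 1.00). Neither 0.405 µM, at 735 ± 206, nor 0.0405 µM, at 716.5 ± 173.5, differed from control beyond its spread. At these 3 lower doses 0 cone opsin genes were called and 0.0% of all genes were called (limma, with and without the block). At an unadjusted p under 0.05 there were 1, 0 and 0 of the 5 cone opsin genes at 4.05, 0.405 and 0.0405 µM, beside 0.465%, 0.311% and 0.904% of all genes. With the block there were 2, 0 and 0, beside 3.89%, 2.95% and 8.6%. Each of the 5 same-numbered pairs of opn1mw2 was lower at 4.05 µM than in the control.

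Ordered by mean level, the resorcinol groups ran from control through 0.405, 0.0405, 4.05 and 40.5 to 405 µM for opn1mw2, and every neighbour in this order overlapped the next. The step from 40.5 to 405 µM was 0.07 on the log2 scale with a standard error of 0.52 (limma, adjusted p = 1.00, with 0.0% of genes called). For opn1mw2 the step from 4.05 to 40.5 µM was -2.03 and was not called with all libraries (limma, adjusted p = 1.00, with 0.0% of genes called). Without both replicate 3 libraries the same step of opn1mw2 was -3.17 and that from control to 4.05 µM was -0.48 on the log2 scale, given with no test. The libraries left out were the lowest of 1 group and the highest of the other, so the step widens by that choice, and where along the doses the decline lay was not settled.

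**Figure D1:**
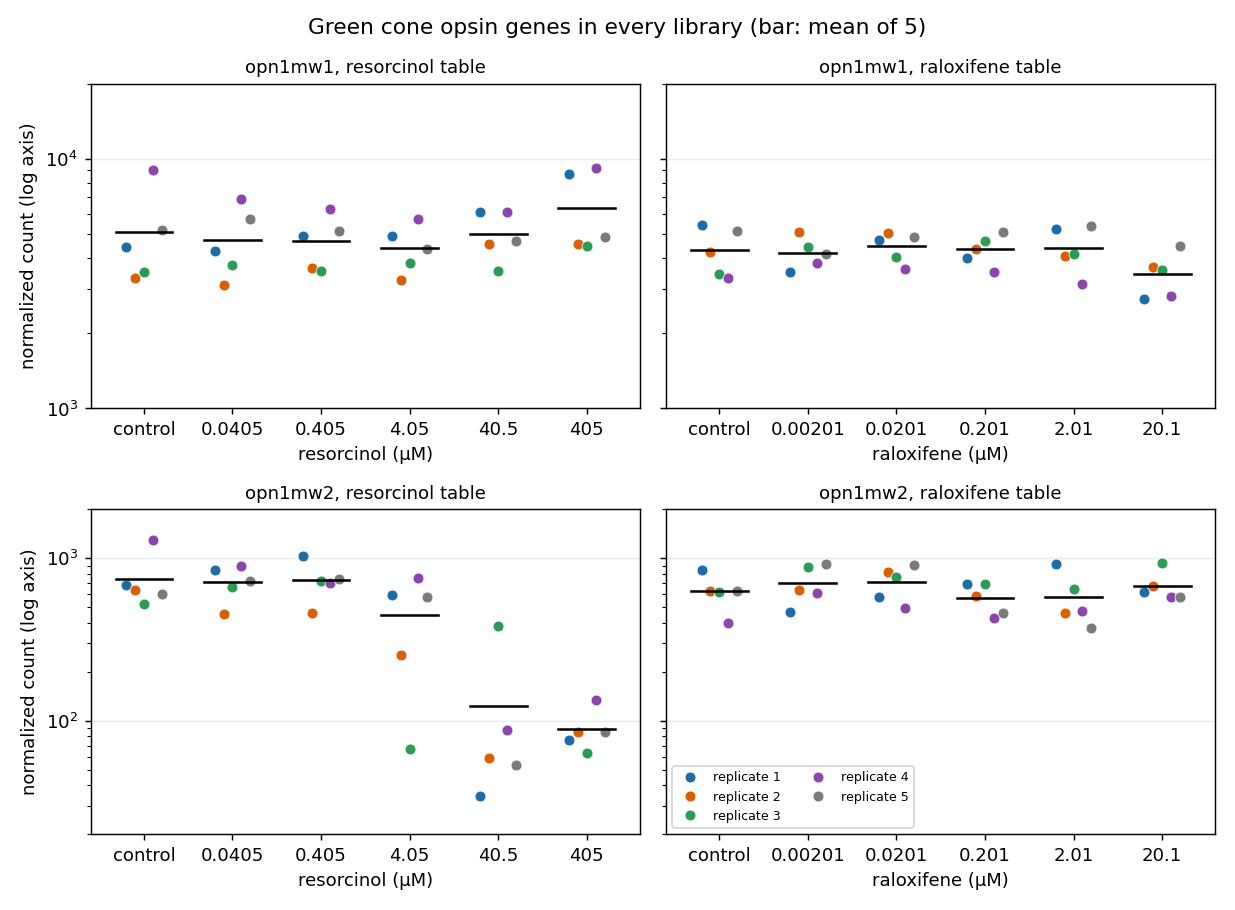
Normalized counts (log axis) of opn1mw1 (top) and opn1mw2 (bottom) in each library of the resorcinol table (left) and the raloxifene table (right), by dose in µM. Points are libraries coloured by replicate number and bars are means of 5. The opn1mw2 points at 405 µM resorcinol lie between 63.5 and 134.7, below all control points, while opn1mw1 overlaps its controls at every dose.

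The neighbouring gene opn1mw1 (ENSDARG00000097008) gave a different picture. Its control counts were 4415, 3322, 3505, 8997 and 5178, and at 405 µM they were 8706, 4544, 4469, 9168 and 4870. The groups overlapped, and the log2 difference of opn1mw1 was 0.34 with a standard error of 0.27 (limma, adjusted p = 1.00; 0.325 with the block). At 40.5 µM the mean of opn1mw1 was 5007 ± 1108 and its log2 difference 0.05, which turned to -0.02 with DESeq2 and edgeR.

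Because both green opsins were measured in the same library, opn1mw2 was also expressed as a percentage of opn1mw1. The controls of the resorcinol table had 15.1% ± 2.68 (SD, n = 5). Larvae at 0.0405 and 0.405 µM had 15.5% ± 3.12 and 16.0% ± 4.59. At 4.05 µM the value was 9.61% ± 4.94, with replicate 3 at 1.75%. At 40.5 µM it was 3.04% ± 4.34, with replicate 3 at 10.8% as the highest, and at 405 µM it was 1.48% ± 0.387.

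The percentages at 405 µM, from 0.873% to 1.87%, did not overlap the control range of 11.6% to 19.1%, and those at 40.5 µM did not either. The log2 ratio of opn1mw2 to opn1mw1 differed from control by -3.37 at 405 µM, or 10.3-fold, and by -3.15 at 40.5 µM, or 8.87-fold. Both gave a p of 0.00794 in a two-sided exact permutation test of 5 against 5 libraries, the smallest this design allows, and 0.0476 after Benjamini-Hochberg adjustment over the 12 ratio tests made. Flipping the signs of the 5 same-numbered differences cannot go below an exact p of 0.0625, and both doses gave that value (adjusted p = 0.25). At 4.05 µM the difference was -0.94 (exact permutation p = 0.0476, adjusted p = 0.190).

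**Figure D2:**
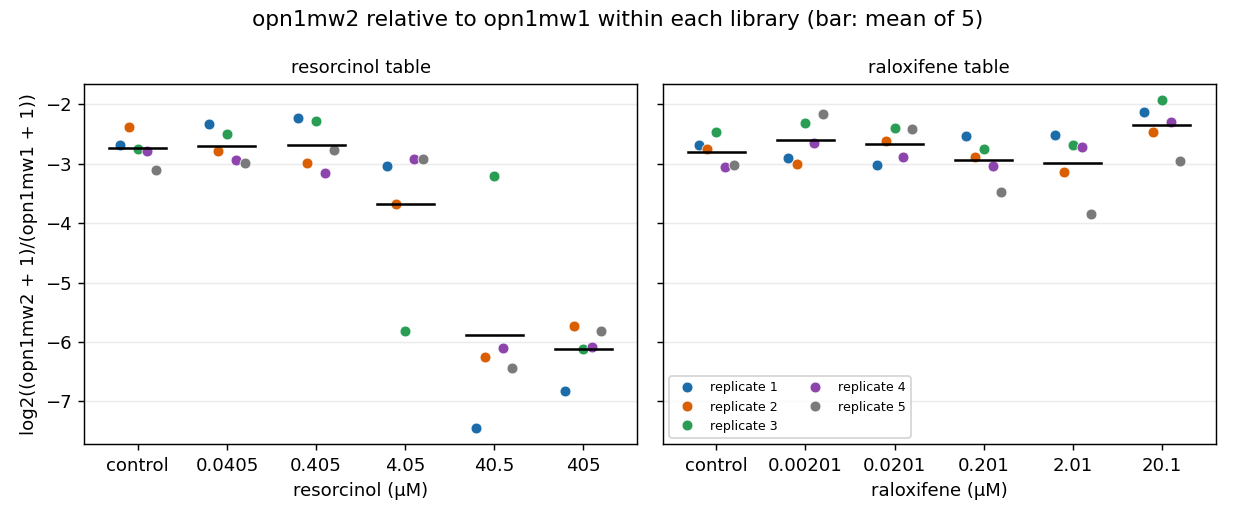
Log2 ratio of opn1mw2 to opn1mw1 (each count plus 1) within every library, by dose in µM of resorcinol (left) and raloxifene (right). Points are libraries coloured by replicate number and bars are means of 5. The resorcinol libraries at 405 µM lie between -6.82 and -5.72, below the control range of -3.10 to -2.39, and the raloxifene groups overlap their controls.

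The other members of the green row were near the limit of detection. Over 5 libraries each, opn1mw3 gathered 12, 11, 13, 6, 5 and 4 reads from the control to 405 µM resorcinol. As counts per 1e6 reads (CPM) this was 0.285 CPM in controls (exact Poisson 95% interval 0.147 to 0.498) and 0.0551 CPM at 405 µM (0.0150 to 0.141). The intervals did not overlap, but they cover counting error only. In units of 1e6 reads, the 405 µM pool held 72.6, and replicate 1 alone gave 30.7 of it. Whether the intervals stay apart without replicate 1 was not tested. Also, opn1mw3 was below the level filter, which asks for 10 normalized counts or more in 5 or more libraries. With no filter opn1mw3 differed by -1.07 on the log2(count + 1) scale with a standard error of 0.48 (limma, adjusted p = 1.00). Only 2 reads of opn1mw4 were found in the 30 resorcinol libraries and 5 in the 30 raloxifene libraries. A group with 0 reads, such as 405 µM, allows up to 0.0508 CPM of opn1mw4.

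Red cone opsins of zebrafish are the pair opn1lw1 and opn1lw2, which adjoin each other in the RefSeq gene table and lie next to the blue cone opsin gene opn1sw2 with 2 genes between. Reads fell almost wholly on opn1lw2 (ENSDARG00000044861), with 2201 ± 1023 in the resorcinol controls against 4.12 ± 1.98 for opn1lw1. Control counts of opn1lw2 were 1582, 1765, 2005, 4008 and 1646. At 40.5 µM resorcinol they were 856, 1142, 1853, 1660 and 1056, and at 405 µM 1471, 1064, 1610, 2253 and 1151. The groups overlapped at both doses, and each of the 5 same-numbered pairs was lower at both.

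At 40.5 µM the log2 difference of opn1lw2 was -0.71 with a standard error of 0.31 and was not called (limma, adjusted p = 1.00). With the replicate number as a block the standard error was 0.14 and opn1lw2 was called 1.63-fold lower (limma, adjusted p = 0.0358), so that 2 of 5 cone opsin genes were called where 0.0664% of all genes were. Without both replicate 3 libraries opn1lw2 was 1.76-fold lower in that fit, where 0.23% of genes were called. No test is given because these libraries were picked by opn1mw2, and opn1lw2 moved with opn1mw2 over the resorcinol libraries. DESeq2 with the block called both genes at 40.5 µM, where it called 0.133% of genes, while edgeR without it called 0 cone opsin genes and 0.0% of genes. The call of opn1lw2 was lost when control replicate 4, its highest control, was left out (limma with the block, adjusted p = 0.239, log2 difference -0.64). At 405 µM opn1lw2 differed by -0.50 on the log2 scale (limma, adjusted p = 1.00; 0.151 with the block).

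Tested over all 5 resorcinol doses at once, opn1mw2 was the 1 cone opsin gene called (limma, adjusted p = 0.00125), where 0.0409% of genes were called. With the block opn1lw2 was called as well (adjusted p = 0.0311), which made 2 of 5 against 0.225% of all genes. The count was also 2 with edgeR and the block, against 0.342% of genes. It was 2 as well in limma with the block without both replicate 3 libraries (0.439% of genes), which supports nothing by itself. DESeq2 with the block called 3 cone opsin genes over all doses, against 0.961% of genes.

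The red opsin opn1lw1 gathered 19 reads in 5 control libraries, 18 at each of the 3 lower resorcinol doses, and 7 at both 40.5 and 405 µM. This was 0.452 CPM in controls (exact Poisson 95% interval 0.272 to 0.705) and 0.0964 CPM at 405 µM (0.0387 to 0.199). The counting intervals were apart, but the 405 µM pool again includes the deep replicate 1. Whether they stay apart without it was not tested. With no level filter opn1lw1 differed by -1.47 at 405 µM on the log2(count + 1) scale with a standard error of 0.46 (limma, unadjusted p = 0.00345, adjusted p = 1.00). The log2 ratio of opn1lw1 to opn1lw2 at 405 µM differed by -0.97 (exact permutation p = 0.0952, adjusted p = 0.229). This ratio turned to 0.14 with a pseudocount of 10 in place of 1, so no direction is given for it.

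Short-wavelength cones are served by 2 opsin genes in zebrafish, a blue opsin and an ultraviolet opsin. The gene named OPN1SW (ENSDARG00000045677) is the short-wave opsin other than opn1sw2, and it took more reads than any other cone opsin gene. Its control counts were 23421, 17929, 16915, 43630 and 20226, and at 405 µM resorcinol they were 49163, 28950.5, 25784, 51357 and 23932. All 5 same-numbered pairs of OPN1SW were higher at 405 µM, while the groups overlapped. The log2 difference was 0.57 with a standard error of 0.24, or 1.48-fold, and was not called (limma, adjusted p = 1.00; 0.122 with the block). DESeq2 with the block did call OPN1SW at 405 µM (adjusted p = 0.0299, with 0.724% of genes called). At 40.5 µM the difference of OPN1SW was 0.20 and at lower doses it stayed between -0.09 and 0.04.

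The blue cone opsin opn1sw2 (ENSDARG00000017274) had 2240 ± 1026 in controls, 1751 ± 212 at 40.5 µM and 2238 ± 724 at 405 µM. Its log2 differences of -0.26 and 0.05 were not called (limma, adjusted p = 1.00 at both doses). The value at 405 µM was -0.0011 with DESeq2, so opn1sw2 had no stable direction there.

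**Figure D3:**
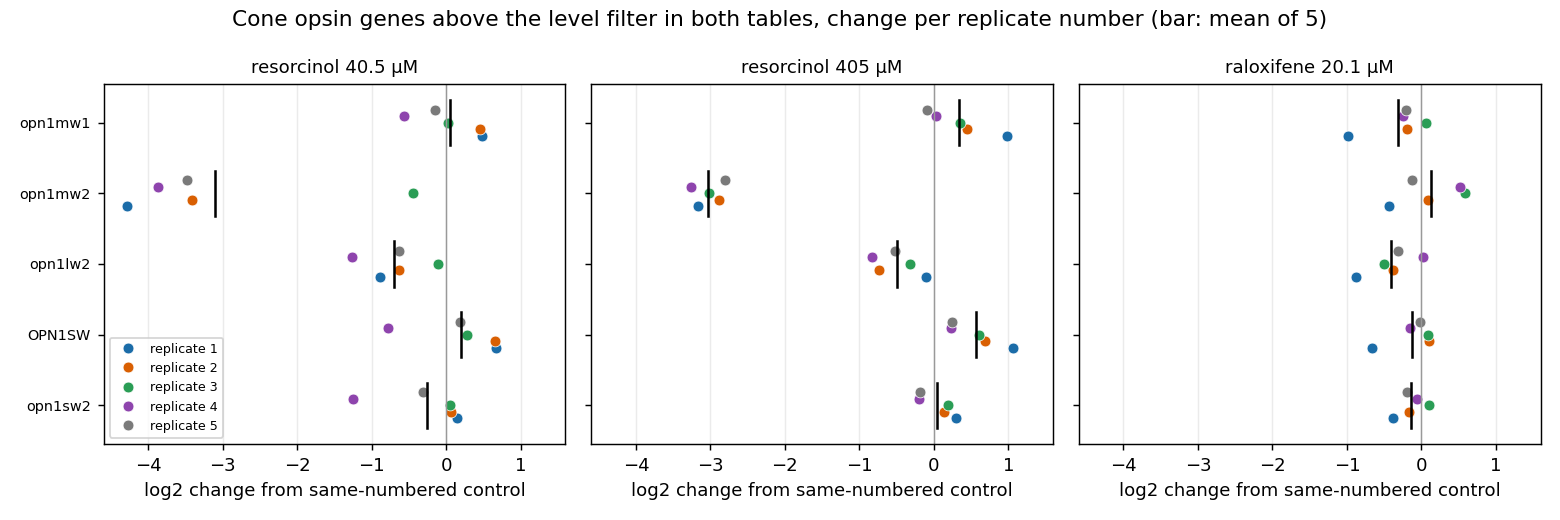
Log2 change (x axis) of each of the 5 cone opsin genes above the level filter in both tables, at 40.5 and 405 µM resorcinol and 20.1 µM raloxifene. Points are dosed libraries minus the control library of the same replicate number, and bars are means of 5. At 405 µM all 5 points of opn1mw2 lie below 0 with a mean of -3.03, all 5 of OPN1SW lie above 0 and all 5 of opn1lw2 below 0.

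Shares of the summed cone opsin counts gave the same comparison within a library. OPN1SW made up 70.2% ± 2.54 of the sum of the 8 cone opsin genes in resorcinol controls and 77.5% ± 2.13 at 405 µM. The ranges, 67.9% to 74.4% and 75.0% to 80.5%, did not overlap. For opn1lw2 the share was 6.41% ± 1.21 in controls and 3.41% ± 0.882 at 405 µM, with ranges of 5.03% to 8.13% and 2.41% to 4.75%. For opn1mw2 it was 2.18% ± 0.173 and 0.203% ± 0.0534, while opn1mw1 kept to overlapping ranges, with 14.6% ± 1.66 and 13.8% ± 1.10. Shares sum to 100%, so a rise of one lowers the others, and these values carry no test. The sum of the 8 cone opsin genes was 34705 ± 15487 in controls and 46027 ± 16383 at 405 µM, with overlapping ranges.

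The 5 tested cone opsin genes had a median log2 change of 0.05 at 405 µM, beside 0.00106 over all genes tested, with 3 above 0 and 2 below. At 40.5 µM their median was -0.26 beside -0.00264 over all genes, with 2 above 0 and 3 below. At an unadjusted p under 0.05 there were 2 of 5 at 405 µM and 2 of 5 at 40.5 µM (limma). Of all genes 1.54% and 0.802% had such a p. With the block there were 4 of 5 and 2 of 5, beside 10.8% and 5.75% of all genes.

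The cone opsin genes differed in the share of their variance that went with replicate number. Such shares are of the total variance, so a large share with dose group leaves less for replicate number. Over the 6 resorcinol groups, means per replicate number ran from 324 to 646 for opn1mw2 and from 3740 to 7192 for opn1mw1. For opn1mw2 over the resorcinol libraries, 75.6% of the variance in all 30 went with dose group and 3.63% with replicate number. The other 4 were split the other way, with 44.9% to 68.8% for replicate number and 10.2% to 30.2% for dose group. For the median of genes tested the values were 6.18% for dose group and 66.4% for replicate number. In the raloxifene table opn1mw2 had 29.1% with replicate number and 13.5% with dose group.

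**Figure D4:**
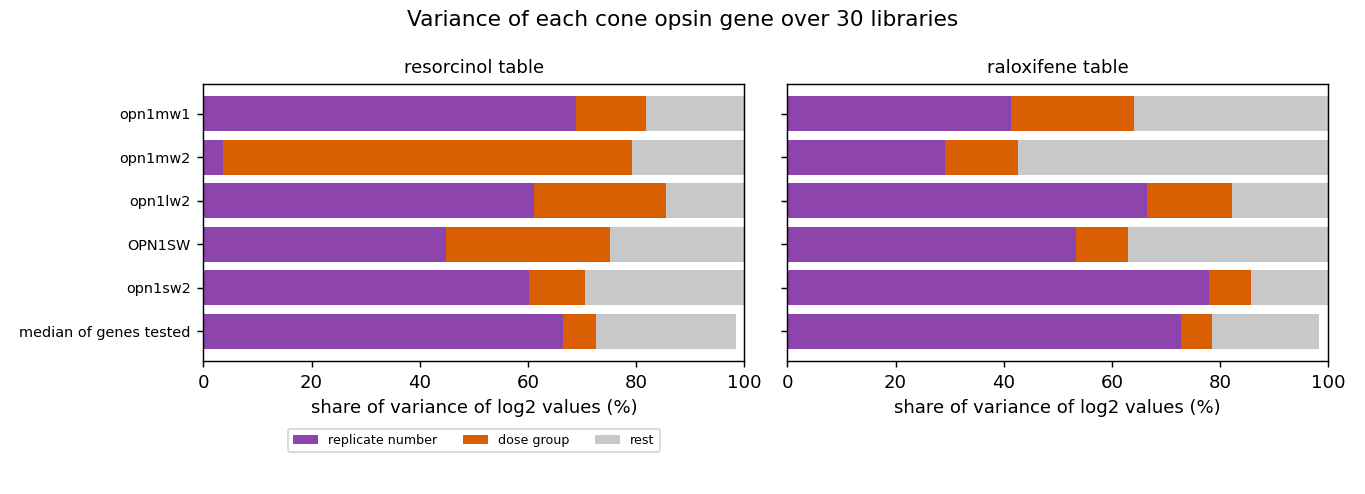
Share of the variance of log2 values (x axis, %) that goes with replicate number, dose group and the rest, for the 5 cone opsin genes above the level filter in both tables, over the 30 libraries of each table. The bottom bar holds the median of each share over all genes tested, which need not sum to 100%. In the resorcinol table opn1mw2 has 75.6% with dose group and opn1mw1 has 68.8% with replicate number.

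Raloxifene gave no call among the cone opsin genes. At 20.1 µM 0 of 5 cone opsin genes were called where 0.0936% of the 19241 genes tested were called, and 0 of 5 with the block where 1.26% were (limma). The 5 had a median log2 change of -0.14, beside -0.01 over all genes, with 4 below 0 and 1 above. At an unadjusted p under 0.05 there were 0 of 5 without the block and 2 of 5 with it, beside 2.32% and 12.3% of all genes. Both edgeR and DESeq2, each with and without the block, called 0 at an adjusted p under 0.05. Those fits called 0.0832% (edgeR), 1.2% (edgeR, block), 0.146% (DESeq2) and 1.65% (DESeq2, block) of genes. The counts of opn1mw2 were 842, 628, 624, 401 and 630 in the controls and 624, 671, 941, 575 and 576 at 20.1 µM. These groups overlapped, and the log2 difference of opn1mw2 was 0.13 with a standard error of 0.24. As a percentage of opn1mw1 it was 14.5% ± 2.52 in controls and 20.1% ± 5.02 at 20.1 µM (exact permutation p = 0.0635, adjusted p = 0.190). The ratio was higher in each of the 5 same-numbered pairs, and flipping their signs gave an exact p of 0.0625, the smallest possible (adjusted p = 0.25).

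For the other cone opsins at 20.1 µM raloxifene the log2 differences were -0.32 for opn1mw1, -0.41 for opn1lw2, -0.13 for OPN1SW and -0.14 for opn1sw2. Against control the values nearest to a call were those of opn1lw2 and opn1mw1 with the block (limma, adjusted p = 0.113 and 0.197). From 2.01 to 20.1 µM 0 of 5 were called with the block, where 173 genes were (limma, lowest adjusted p = 0.172 for opn1lw2). For that step 4 of 5, all lower, had an unadjusted p under 0.05 with the block, beside 10.2% of genes. Without the block there were 0, beside 1.51%. Over all doses 0 of 5 were called with the block, where 352 genes were (limma, opn1lw2 adjusted p = 0.102). There 3 of 5 had an unadjusted p under 0.05, beside 14.3% of genes. The low opn1lw1 gathered 20 reads in 5 control libraries and 9 at 20.1 µM. The 4 lower raloxifene doses also gave 0 calls among 5 cone opsin genes in limma with and without the block, where 0.0% of genes were called without it. With the block 0.0208% were called at 2.01 µM, 0.0156% at 0.201 µM, 0.0% at 0.0201 µM and 0.0987% at 0.00201 µM. Whether the response of opn1mw2 to resorcinol differs from that to raloxifene was not tested, since the tables were normalized separately and the doses differ.

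Among all other genes tested, the 3 whose log2 values were most like those of opn1mw2 over the 30 resorcinol libraries, after the mean of each replicate number was taken off, were KCNV2, SNX8 and GUCA1A. Their Pearson r values were 0.964, 0.961 and 0.955, given as a description, since the libraries share doses and 1 factor scales all genes of a library. Over the 30 raloxifene libraries, which did not choose them, r was 0.467, 0.520 and 0.298. KCNV2 (ENSDARG00000062906) encodes a modifying subunit of photoreceptor potassium channels. Its counts in the 40.5 µM group were 8.23, 5.50, 55.8, 7.17 and 3.01. A high replicate 3 follows from picking KCNV2 by its likeness to opn1mw2 over these same libraries. SNX8 encodes a sorting nexin and GUCA1A (ENSDARG00000100747) a calcium-sensing activator of guanylate cyclase.

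For OPN1SW the most similar genes were PDC, gnb3b and gpr146, with r of 0.960, 0.956 and 0.945. PDC encodes phosducin, which binds transducin subunits, and gnb3b a beta subunit of cone transducin. Over the raloxifene libraries r was 0.470 for PDC, 0.928 for gnb3b and 0.201 for gpr146. The 3 genes most like opn1mw1 were gpr146, gnb3b and camk1ga, with r of 0.874, 0.873 and 0.853. Over the raloxifene libraries r with opn1mw1 was -0.041 for gpr146, 0.889 for gnb3b and 0.170 for camk1ga.

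The genes most like opn1lw2 were EFNA1, NPTX1 and si:dkey-72l14.3, with r between 0.838 and 0.878. Over the raloxifene libraries r with opn1lw2 was -0.195 for EFNA1, -0.194 for NPTX1 and 0.458 for si:dkey-72l14.3. CHST2, EEF1A1 and syt5a were those most like opn1sw2, with r between 0.840 and 0.859, and between 0.181 and 0.532 over the raloxifene libraries.

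Within the cone opsin genes, opn1mw1 and OPN1SW moved together over the resorcinol libraries after the same step (r = 0.91) and over the raloxifene libraries (r = 0.86). The pair opn1mw2 and opn1lw2 had r of 0.81 in the resorcinol table and 0.05 in the raloxifene table. For opn1mw2 and OPN1SW r was -0.61 and 0.06. All are descriptions over 30 libraries of a table that share dose groups.

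Other genes of the light-sensing pathway were read from lists made with earlier results of these data known. Counts of calls in these lists, set beside the share over all genes, are thus descriptions and support nothing by themselves. In cones, opsin activates transducin, which opens the way to phosphodiesterase, and falling cyclic GMP closes the cGMP-gated channel. Of 35 cone phototransduction genes tested, 2 fell at 405 µM resorcinol without the block, where 0.0255% of all genes fell, both activators of guanylate cyclase. GUCA1A (ENSDARG00000100747) went from 109 ± 31.4 to 16.5 ± 3.87, or 6.16-fold lower (limma, adjusted p = 0.00299), and guca1d from 44.0 ± 14.5 to 7.55 ± 3.18, or 5.31-fold lower (adjusted p = 0.0253). The list had a median log2 change of 0.07.

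With the block 4 of the 35 rose and 3 fell at 405 µM, where 0.174% of all genes rose and 0.153% fell, 0.327% in all. The 4 were the cone channel subunit CNGA3 (ENSDARG00000012297, 1.90-fold), the opsin kinase GRK7 (ENSDARG00000055534, 1.71-fold), gnb3b (log2 change 0.58) and a second GUCA1A identifier (ENSDARG00000101567, 2.68-fold), with limma adjusted p from 0.0197 to 0.0297. The third gene that fell was guca1g, 3.03-fold (limma, adjusted p = 0.0123). Without both replicate 3 libraries KCNV2 and pde6ha were 4.67- and 1.89-fold lower at 405 µM (limma with the block), and with all libraries neither was called. No test is given because of how these libraries were picked. They are of other doses, and the 3 genes that fell with the block had the same fold sizes at 405 µM with and without them. The pair of identifiers with the symbol GUCA1A was thus called in opposite directions.

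At 40.5 µM with the block 4 cone genes fell, namely KCNV2, guca1d, GUCA1A (ENSDARG00000100747) and guca1g, by 6.68-, 4.36-, 4.26- and 3.09-fold (limma, adjusted p from 0.00878 to 0.0308), and 0 rose, where 0.0613% of all genes fell. Without both replicate 3 libraries pde6ha, the inhibitory subunit of cone phosphodiesterase, was 2.43-fold lower (limma with the block). No test is given for it because of how these libraries were picked, and with all libraries it was not called. That fit called 5 cone genes lower, against 0.209% of all genes, a count that supports nothing by itself. Summed over the 35 genes the level ranged from 53451 to 124109 in controls and from 50610 to 105693 at 405 µM, so the list as a whole overlapped.

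Rod phototransduction genes gave 0 calls of 20 at 405 µM and at 40.5 µM, with a median log2 change of 0.09 and -0.05 (limma, with and without the block). Of 16 photoreceptor transcription factors, six7, which in zebrafish is needed for green cone opsin expression, was 1.61-fold higher at 405 µM with the block (limma, adjusted p = 0.0217; 728 ± 293 in controls and 1173 ± 391). The retinal homeobox gene rx1 was 1.69-fold lower at 405 µM (adjusted p = 0.0271) and 1.85-fold lower at 40.5 µM (adjusted p = 0.0260) in the same fit. Without the block 0 of the 16 were called. Of all genes 0.327% were called at 405 µM and 0.0664% at 40.5 µM with the block (limma). Without it the shares were 0.0306% and 0.00511%.

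Markers of other eye and brain cells were counted the same way at 405 µM with the block. The retinol dehydrogenase RDH8 (ENSDARG00000099217) was 3.39-fold higher, the 1 call among 20 visual cycle and pigment epithelium genes (limma, adjusted p = 0.0217). Of 16 bipolar, amacrine and ganglion cell markers, cabp5a and cabp5b, calcium-binding proteins of bipolar cells, were 1.65- and 1.41-fold higher (limma, adjusted p = 0.00932 and 0.0123). These 3 rose where 0.174% of all genes did, and 0 of the 20 and 0 of the 16 were called without the block. No call was made among 21 non-visual opsins, with a median log2 change of -0.02, among 5 pineal markers, with 0.09, or among 4 Müller glia markers, with 0.11.

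The 21 lens genes tested gave 0 calls at 405 µM. All 21 lay above control, with a median log2 change of 1.04, beside 0.00106 over all genes tested. The lens genes were read in the same libraries, so their directions are not independent. Their summed level was 9773 to 151782 in the 5 control libraries and 75196 to 154825 at 405 µM, so the groups overlapped. No gene of any list was at 0 in all 30 libraries of a table. The part of lens RNA in the opsin results was not tested. At 20.1 µM raloxifene with the block, rx2, a retinal homeobox gene, was 1.70-fold lower (limma, adjusted p = 0.00256) and the pigment cell gene pmelb 1.47-fold lower (adjusted p = 0.0232), where 0.385% of all genes fell, and 0 of the 35 cone and 0 of the 20 rod genes were called. Also with the block, the recoverin gene rcvrna was 1.48-fold lower at 20.1 than at 2.01 µM raloxifene (limma, adjusted p = 0.0390, with 0.546% of all genes lower). From the list of 16 bipolar, amacrine and ganglion cell markers, POU4F1 was 1.36-fold lower at 0.00201 µM than in controls. This was with the block (limma, adjusted p = 0.0462, with 0.0468% of all genes lower). In whole larvae the tissue behind the POU4F1 value cannot be told.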

How the data were processed

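RNA sequencing values of 60 samples were used, 5 in each of 12 groups. The authors deposited 1 table for each compound. Per the file headers and values it holds, for every Ensembl gene and library, reads over a library-wide factor, a normalized signal (normalized count) that is never negative. Per the submitters' processing notes, cutadapt, STAR and DESeq2 were used with GRCz11. How reads were assigned to genes, with or without strand and from which annotation, is not stated in the labels. Near-identical duplicated opsin genes may share reads, which leaves the split of reads among them uncertain. Whole reads were recovered for 100% of values at a tolerance of 0.1 read.

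Because the values were not raw counts, limma 3.58.1 (R 4.3.3) with an intensity trend was run on log2(normalized count + 1), which understates changes of low genes. Each compound had its own fit, of 30 libraries and 6 group means. A gene was tested when 5 or more libraries reached a normalized count of 10, which left 19583 genes for resorcinol and 19241 for raloxifene, with 5 cone opsin genes in each. A Benjamini-Hochberg adjusted p under 0.05 over all genes made a call. Ratios were compared with two-sided exact permutation tests (Python 3.11.15, SciPy 1.17.1). Intervals cover counting error only, since reads carry no molecular identifiers.

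Same-numbered libraries deviated together. All 75 same-number pairs per compound correlated above 0.1, the lowest at 0.194 for resorcinol and 0.344 for raloxifene, so the replicate number was taken to pair samples. The main limma fit held no replicate term, and p-values given without the block leave this pairing out. The pairing comes from the data, since the labels do not say what the number marks. Alternatives were the replicate block, edgeR 4.0.16 and DESeq2 1.42.0 on recovered reads, other filters, a pseudocount of 10, quantile normalization, fits of 2 groups only, and leaving out libraries. DESeq2 with the block and the fits without both replicate 3 libraries were added after seeing the data. The scripts were tested on simulated data. The opsin genes and gene lists were chosen with earlier results of these data known. All cone opsin genes are named, with the 3 genes most like each that passed the resorcinol filter and the list genes called by limma over all libraries, with or without the block. The list gene pde6ha was added after its values were seen. Sequences, coordinates and some genes are not reported here.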

Additional observations from a re-analysis of the deposited data

Results flagged for a closer look

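In 11 of 60 groups of 5 libraries, 1 library passed the 95% limit of Dixon's test for its gap from the other 4. Dixon's test was run on normalized counts and not on log2 values. Its rate of about 1 in 20 groups by chance holds for normally distributed values, so no excess over chance is read from the flags. Whether the flags hold on the log2 scale was not tested. Groups of different genes share libraries, so the flags are not independent.

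Control replicate 4 of the resorcinol table was the high library for opn1mw2 at 1303, opn1lw2 at 4008, OPN1SW at 43630 and opn1sw2 at 3997. Replicate 4 was also high for opn1lw2 at 4.05 µM, at 2642, and for opn1sw2 at 405 µM, at 3490. Replicate 3 at 40.5 µM was high for opn1mw2 at 382.6, beside a next value of 87.8.

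In the raloxifene table replicate 3 at 20.1 µM was high for opn1mw2 at 941.3, and control replicate 1 was high for OPN1SW at 33090. Replicate 4 was low for OPN1SW at 0.201 µM, with 17896, and at 20.1 µM, with 17251.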

How the results depend on the processing

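Of 927 alternative values, 811 kept their direction and their side of the threshold. The count of cone opsin genes called at 405 µM resorcinol was 1, and 2 with DESeq2 and the replicate block (opn1mw2 and OPN1SW). At 40.5 µM it was 2 (opn1mw2 and opn1lw2) with the replicate block, with DESeq2 and the block, and with the block without both replicate 3 libraries, and 0 with edgeR or with 2 groups only. The step from 4.05 to 40.5 µM gave 1 without both libraries, with or without the block, and that step widens by how they were picked. Over any dose the count was 2 with the block, with edgeR and the block and with the block without both libraries, and 3 with DESeq2 and the block. Counts without both libraries support nothing by themselves, because of how these were picked. The cause of the other changes was not tested.

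Leaving out a library or a replicate number gave 0 to 2 calls at 405 µM and at 40.5 µM, 0 to 1 for the step from 4.05 to 40.5 µM, and 1 to 2 over any dose. At 405 µM opn1mw2 kept its call in 3 of 10 fits without 1 library (adjusted p from 0.0324 to 0.111, log2 change from -3.19 to -2.81). The limma call was lost without 405 µM replicate 1, 3 or 5 (adjusted p = 0.111, 0.0776 and 0.0674) and without control replicate 1, 2, 3 or 4 (0.0744, 0.0859, 0.0562 and 0.0751). With the block it was kept without each of the 5 replicate numbers. At 40.5 µM opn1mw2 kept its call in 1 of 10 fits without 1 library, that without replicate 3 (limma, adjusted p up to 0.292 in the others). Its log2 change ran from -3.65 to -2.79 over these fits. With the block the call was kept only without replicate number 3. Replicate 3 was picked by its opn1mw2 value, so a call kept without it supports nothing by itself.

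The log2 ratio of opn1mw2 to opn1mw1 stayed at -3.37 and -3.15 with the replicate block, where no exact p under 0.0625 is possible. With replicates left out it ran from -3.47 to -3.19 at 405 µM, from -3.82 to -2.76 at 40.5 µM, from -0.062 to 0.17 at 0.405 µM and from -0.060 to 0.12 at 0.0405 µM. The ratio of opn1lw1 to opn1lw2 turned with a pseudocount of 10 to 0.14, 0.40, 0.27 and 0.087 at 405, 40.5, 4.05 and 0.0405 µM resorcinol and to 0.18 at 20.1 µM raloxifene. With replicates left out it ran from -0.43 to 0.27 at 4.05 µM, from -0.43 to 0.045 at 0.405 µM and from -0.31 to 0.19 at 0.0405 µM.

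Differences near 0 also turned. At 405 µM opn1sw2 ran from -0.12 to 0.28 with libraries left out (DESeq2 -0.0011), at 40.5 µM opn1mw1 ran from -0.079 to 0.28 (DESeq2 -0.021, edgeR -0.017), and at 20.1 µM raloxifene OPN1SW ran from -0.19 to 0.012 and opn1mw2 from -0.022 to 0.27. Reads of opn1mw3, opn1mw4 and opn1lw1 were few at this depth, and none of these genes was called with no level filter (limma). The counting intervals of opn1mw3 and opn1lw1 at 405 µM resorcinol lay apart from those of the controls with all 5 libraries pooled. This pool includes the deep replicate 1, and whether the intervals stay apart without that library was not tested.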
